A study of Homo sapiens with 16 samples.

Results

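The comparison set SK-N-SH cells exposed to risperidone for 24 h against SK-N-SH cells exposed for 6 h, both at 10 µM, without the untreated cells in the fit. Its members are the 4 arrays labelled 24 h and the 4 arrays labelled 6 h, 8 of the 16 arrays of the series. The other arrays are 4 of cells treated for 48 h and 4 of control cells, and they were left out of the main fit. They enter as levels for orientation, in counts for scale, in the test against the following step and in alternative fits. They also count in the choice of each gene's probe set and in the filter on dim genes, which used all 16 arrays. SK-N-SH is an established human neuroblastoma line, and both groups are the same unmodified line. Risperidone is used against psychosis and blocks receptors of dopamine and of serotonin. The controls are called untreated in the sample labels, whereas the treatment protocol gives them the solvent DMSO, and the labels do not give their harvest time. No control is labelled for 6 h or for 24 h, so length of exposure and time in culture cannot be told apart. Each sample is called a biological replicate, with no statement that replicates came from separate cultures, so the p-values measure the spread between these arrays, which may be partly technical.

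Cells of more than one state occur in SK-N-SH cultures: adrenergic, neuroblast-like cells, which carry the transmitter machinery of sympathetic neurons, and flat, substrate-adherent (mesenchymal) cells, which make extracellular matrix. Risperidone and related amine drugs are lipophilic bases that collect in acidic compartments such as lysosomes. Several antipsychotics are known to disturb the movement of cholesterol inside cells and to raise the genes of cholesterol synthesis, which the transcription factor SREBP2 controls. The arrays were made from RNA of whole cultures, so fewer cells of a type and less RNA per cell cannot be told apart.

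RNA was measured on 1-colour U219 arrays, and the authors deposited log2 values for each probe set, made by robust multi-array average (RMA). Every level below is such a log2 value, a change is the 24 h mean minus the 6 h mean with its standard error (SE), and levels of different genes are not comparable. After the dimmest genes were left out, 13680 genes were tested with limma, and a gene was called at a Benjamini-Hochberg adjusted p under 0.05. Pearson correlations between arrays over these genes were 0.9983 to 0.9988 within 24 h, 0.9978 to 0.9987 within 6 h and 0.9969 to 0.9982 between the groups. Markers of adrenergic cells were present at both times. HAND2 averaged 12.60 at 24 h and 12.59 at 6 h, and PHOX2A averaged 10.10 at 24 h and 10.07 at 6 h. Of 17 tested adrenergic identity genes 2 were called higher (EYA1 and RET) and 0 lower, against 1.81% and 1.25% of all genes. Neither call held in every fit that left out 1 array. Above 0 lay 13 of the 17. The list's mean was 10.723 to 10.729 at 24 h, against 10.668 to 10.721 at 6 h, a narrow separation. The mesenchymal marker PRRX1 averaged 3.96 at 24 h and 3.98 at 6 h, whereas it had averaged 9.07 in untreated cells. Mesenchymal markers differed in this: VIM averaged 11.99 at 24 h, 12.06 at 6 h and 13.30 in untreated cells. TWIST1, picked here after its values were seen, averaged 12.625 at 24 h, 12.60 at 6 h and 12.64 in untreated cells.

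The difference between 24 h and 6 h was small in size. Limma called 418 genes, 3.06% of those tested, of which 247 were higher at 24 h (1.81%) and 171 were lower (1.25%). At an unadjusted p under 0.05 the number was 2493 of 13680. The counts of every list below are to be set against these numbers over all genes. Of the called genes, 26 were higher and 9 were lower by at least 1.5-fold, and at 2-fold 1 gene remained on each side, GPNMB above and CRCP below. The median change was 0.315 among the genes called higher and -0.28 among those called lower, against 0.0025 over all genes. For scale, the same test called 6761 genes (49.4%) for 6 h against untreated and 4001 (29.2%) for 48 h against 24 h.

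The number of calls depended on single arrays. Without replicate 1 of 6 h, 276 genes were higher and 121 lower. Without any 1 of the other 7 arrays, the counts were between 102 and 157 higher and between 67 and 112 lower. In all 8 of these fits 139 of the 418 calls held, 84 higher and 55 lower. The called genes given below with their 8 array values are among them, except LUM, THBS1 and RUNX2. Where a call was lost without an array, this is stated beside the gene.

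**Figure D1:**
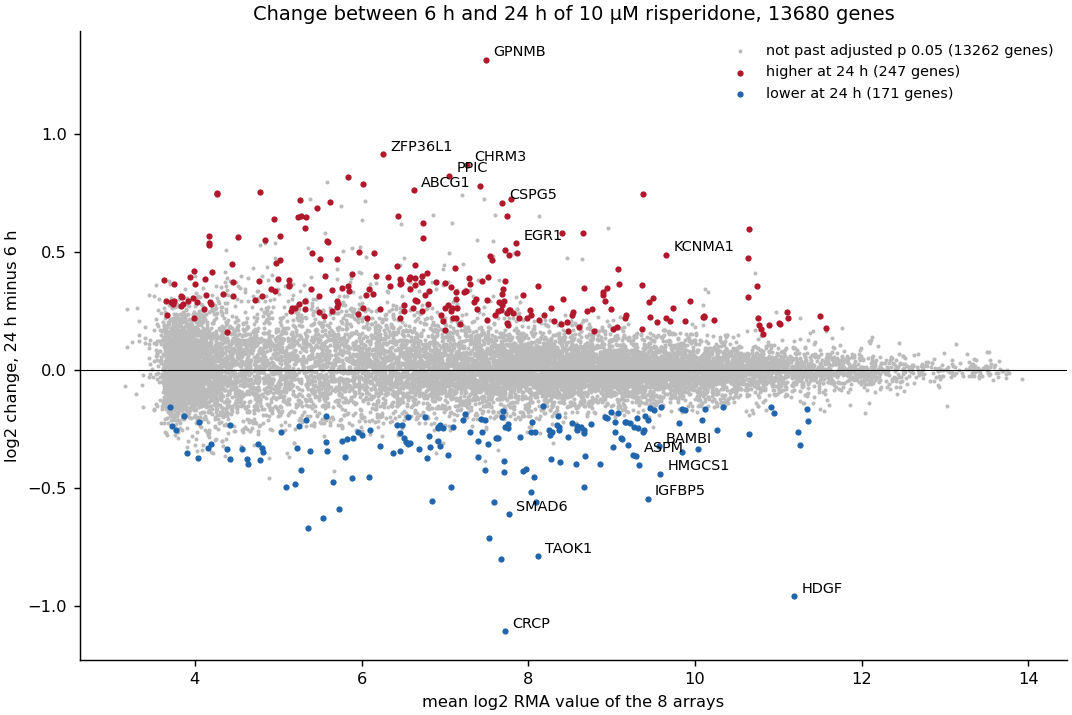
Log2 change between 24 h and 6 h (vertical axis, 24 h minus 6 h) against the mean log2 RMA value of the 8 arrays (horizontal axis) for 13680 genes. The 247 genes called higher are red and the 171 called lower are blue; GPNMB lies highest and CRCP and HDGF lowest.

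The largest rise was that of GPNMB, a membrane glycoprotein of lysosomes and melanosomes. It stood at 8.23, 8.20, 8.04 and 8.11 in the 4 arrays of 24 h, against 7.24, 6.86, 6.22 and 7.0 in the 4 arrays of 6 h. Every 24 h array lay above every 6 h array, and replicate 3 of 6 h was the lowest. The change was 1.315 ± 0.18 (SE), a 2.49-fold rise (adjusted p = 0.00747), and the gene's 3 other probe sets were also called higher, with changes of 1.10 to 1.28. The level in untreated cells was 7.91, between those of the 6 h and the 24 h arrays. In the lysosome list of 24 genes, limma called 0 in either direction (6 at an unadjusted p under 0.05), and the median change was 0.019.

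CHRM3, the muscarinic acetylcholine receptor M3, had 7.60, 7.71, 7.69 and 7.79 at 24 h, against 6.68, 6.84, 6.84 and 6.95 at 6 h. The groups were far apart relative to their spread, and the change was 0.87 ± 0.06 (1.83-fold, adjusted p = 0.000478). CSPG5, a brain chondroitin sulfate proteoglycan (neuroglycan C), had 8.06, 8.05, 8.05 and 8.0 at 24 h, against 7.24, 7.37, 7.38 and 7.33 at 6 h. It rose by 0.71 ± 0.04 (adjusted p = 0.000146), and its other probe set rose by 0.565. Both genes had been lower in untreated cells, at 6.64 for CHRM3 and 6.32 for CSPG5.

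HBQ1, a globin of the alpha family, rose by 0.82 ± 0.07 (adjusted p = 0.00131). SULF2, an extracellular enzyme that removes sulfate groups from heparan sulfate, rose by 0.71 ± 0.10 (adjusted p = 0.00985). PPIC, cyclophilin C, a prolyl isomerase of the secretory pathway, had 7.54, 7.43, 7.47 and 7.41 at 24 h, against 6.96, 6.68, 6.40 and 6.52 at 6 h. It rose by 0.82 ± 0.10 (adjusted p = 0.00500), and both of its other probe sets were called higher too. The groups of all 3 genes were separate, and PPIC at 24 h was still below its untreated mean of 8.55.

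**Figure D2:**
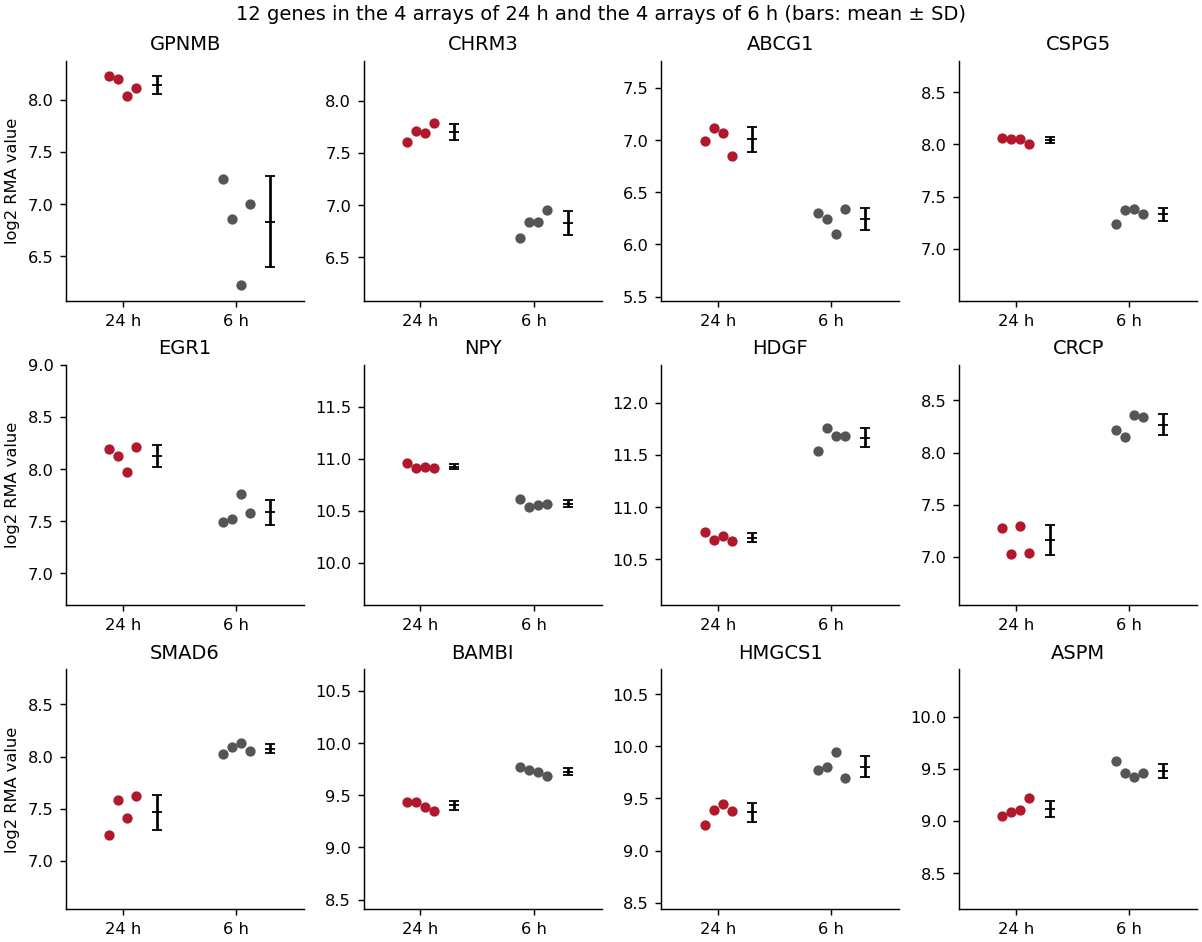
Log2 RMA values of 12 genes in each array, with 24 h left and 6 h right in each panel; points are arrays, bars are the mean ± SD (n = 4 each), and every vertical axis spans the same log2 distance. In all 12 panels the groups do not overlap; the first 6 genes are higher at 24 h and the last 6 lower.

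Genes of cholesterol synthesis were among those called lower. Of 20 tested genes of sterol synthesis and uptake, 6 were called lower and 0 higher, against 1.25% and 1.81% of all genes, and the list's median change was -0.17, against 0.0025 over all genes. Below 0 lay 17 of the 20, and 11 had 24 h arrays all below their 6 h arrays, against 4.8% of all genes (6.25% had them all above). Of the 6 calls, 5 held whichever array was left out.

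HMGCS1, the cytosolic HMG-CoA synthase of the mevalonate pathway, had 9.24, 9.39, 9.45 and 9.38 at 24 h, against 9.77, 9.80, 9.94 and 9.70 at 6 h. The groups did not overlap, and the gene fell by 0.44 ± 0.06 (adjusted p = 0.00872). Its second probe set fell by 0.58 and was called as well. HSD17B7, the 3-keto reductase of sterol synthesis, had 5.77, 5.99, 5.88 and 5.80 at 24 h, against 6.19, 6.39, 6.45 and 6.21 at 6 h (change -0.45 ± 0.07, adjusted p = 0.0135). DHCR7, the enzyme of the last step to cholesterol in one branch of the pathway, had 7.52, 7.45, 7.48 and 7.60 at 24 h, against 8.01, 7.77, 7.85 and 7.96 at 6 h (adjusted p = 0.0115). In both genes the groups were separate.

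ACAT2, which makes the acetoacetyl-CoA that HMG-CoA synthase uses, was at 11.25 in all 4 arrays of 24 h, against 11.42, 11.47, 11.48 and 11.49 at 6 h (adjusted p = 0.0115). SQLE, squalene epoxidase, changed by -0.16 ± 0.04 with an adjusted p of 0.0477. This call was lost without any 1 of 7 arrays (adjusted p up to 0.133). The 3 other tested probe sets of SQLE changed by -0.84 to -0.09, with 1 called lower. The levels in untreated cells were lower than those at 24 h: HMGCS1 averaged 9.04 there, DHCR7 7.21, HSD17B7 5.58 and ACAT2 10.94, each below its 24 h mean. Averaged over the 20 genes, the list stood at 8.22 to 8.34 in the untreated arrays, 8.75 to 8.80 at 6 h, 8.59 to 8.63 at 24 h and 8.46 to 8.52 at 48 h, with no overlap between any of the 4 groups.

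Other lipid genes were tested as well. Of 15 genes of fatty acid synthesis, 1 was called lower, the elongase ELOVL6, and the list's median was -0.035. ELOVL6 changed by -0.23 ± 0.04 (adjusted p = 0.0279, lost without any 1 of 6 arrays at adjusted p up to 0.0812). Below 0 lay 13 of the 15. In 4 the 24 h arrays were all below the 6 h arrays and in 1 all above, against 4.8% and 6.25% of all genes. The list's mean was 9.314 to 9.333 at 24 h, against 9.335 to 9.393 at 6 h, a narrow separation. LXR is the nuclear receptor that senses oxidised sterols and turns on sterol export. Of 9 tested LXR target and efflux genes 2 were called higher and 0 lower, with a median of 0.185. ABCG1, a sterol exporter, had 6.99, 7.12, 7.07 and 6.85 at 24 h, against 6.30, 6.24, 6.10 and 6.34 at 6 h, with clear separation of the groups. It rose by 0.76 ± 0.07 (adjusted p = 0.00131), and 3 of its 4 other probe sets were called higher. MYLIP, the ligase that marks the LDL receptor for breakdown, rose by 0.28 ± 0.05 (adjusted p = 0.0258), a call lost without any 1 of 5 arrays (adjusted p up to 0.0772). ABCA1, the exporter of sterol to apolipoprotein A1, had a change of 0.265 ± 0.07 that did not pass (adjusted p = 0.0800).

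Genes of mitosis were also among those called lower. Of 36 tested, 8 were called lower and 0 higher, against 1.25% and 1.81% of all genes. The median change was -0.15, and 35 lay below 0. In 19 of them the 24 h arrays were all below the 6 h arrays, against 4.8% of all genes. The list's mean was 9.40 to 9.44 in the 24 h arrays, against 9.55 to 9.59 in the 6 h arrays, which did not overlap. Of the 8 calls, 3 held whichever array was left out, and the count was 5, 4 and 4 without replicate 1, 3 or 4 of 6 h and 5, 3 and 5 without replicate 2, 3 or 4 of 24 h.

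ASPM, a protein of the spindle poles, had 9.05, 9.09, 9.10 and 9.22 at 24 h, against 9.57, 9.46, 9.42 and 9.46 at 6 h. It fell by 0.36 ± 0.05 (adjusted p = 0.00747), as did its other probe set, by 0.31. BUB1B, the spindle checkpoint kinase BUBR1, had 9.07, 8.95, 9.05 and 9.06 at 24 h, against 9.32, 9.30, 9.44 and 9.33 at 6 h (adjusted p = 0.00967). The groups of both genes were separate. KIF20A, a kinesin of cell division, had 9.11, 9.17, 9.17 and 9.16 at 24 h, against 9.38, 9.36, 9.38 and 9.45 at 6 h (adjusted p = 0.0115). TTK, the checkpoint kinase MPS1, fell by 0.22 ± 0.04 (adjusted p = 0.0179), a call just lost without replicate 2 of 6 h or replicate 3 of 24 h (adjusted p = 0.0504). The cyclin gene CCNB1, the polo kinase gene PLK1 and the cyclin-dependent kinase gene CDK1 did not pass, with changes of -0.09, -0.23 and -0.01 (adjusted p = 0.267, 0.154 and 0.911).

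Many late cell cycle genes are known to carry a promoter element, the cell cycle genes homology region (CHR), to which the DREAM and MuvB complexes bind. The promoter stretches of the 3 mitosis genes whose calls were most stable are shown because they illustrate both outcomes of a search for this element. Each is the 150 bases before the start site in RefSeq's annotation of GRCh38.p14, 5′ to 3′ on the gene's strand, with the CHR letters TTTGAA, or TTCAAA where they lie on the other strand, in capitals. ASPM lies on the minus strand at chr1:197146670-197146819, BUB1B on the plus strand at chr15:40160919-40161068 and KIF20A on the plus strand at chr5:138178962-138179111.
ASPM: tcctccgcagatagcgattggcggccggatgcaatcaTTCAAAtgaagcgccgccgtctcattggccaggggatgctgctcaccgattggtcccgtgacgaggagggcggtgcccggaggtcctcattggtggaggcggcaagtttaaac
BUB1B: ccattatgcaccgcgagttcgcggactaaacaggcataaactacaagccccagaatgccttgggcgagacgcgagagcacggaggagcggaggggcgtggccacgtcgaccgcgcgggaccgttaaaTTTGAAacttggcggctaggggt
KIF20A: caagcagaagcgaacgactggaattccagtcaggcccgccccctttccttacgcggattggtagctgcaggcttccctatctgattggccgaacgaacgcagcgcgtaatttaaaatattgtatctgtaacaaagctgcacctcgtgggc

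In BUB1B the motif began 23 bases before the start site, in ASPM 113 bases before it on the other strand, and the KIF20A stretch held none. In windows from 250 bases before to 50 bases after the start, TTTGAA on either strand was present in 5324 of 35116 RefSeq promoters (15.2%). Counted by gene, in any of its promoters, it was present in 14.2% of the tested genes with a promoter entry. Among the mitosis genes with a promoter entry it was present in 21 of 30 (70.0%), and among the called ones in 5 of 7 (71.4%), close to the share of their whole list. Of the sterol genes with a promoter entry, 1 of 18 held the SREBP element TCACNCCAC, and 0 of 4 of the called members did, against 1.47% of tested genes. Of 9 motifs searched, these are the ones known for the mitosis and sterol lists. A match describes letters in the window and is not a measured binding site.

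Genes of DNA replication and of the G1/S transition made up another list. Of 39, limma called 0 in either direction (5 at an unadjusted p under 0.05), the median change was 0.01, and the list's mean was 9.64 to 9.66 at 24 h, against 9.62 to 9.65 at 6 h. The cyclin E1 gene CCNE1, which acts at the entry to S phase, had a change of 0.18 ± 0.04 (adjusted p = 0.0613). The helicase subunit gene MCM2 changed by -0.01 ± 0.05 (adjusted p = 0.956). GAS2L3, which binds microtubules and actin in dividing cells, was outside the mitosis list and had a change of -0.67 ± 0.12 (adjusted p = 0.0214), a call lost without replicate 3 or 4 of 6 h or replicate 2 of 24 h (adjusted p = 0.0521 to 0.0643).

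**Figure D3:**
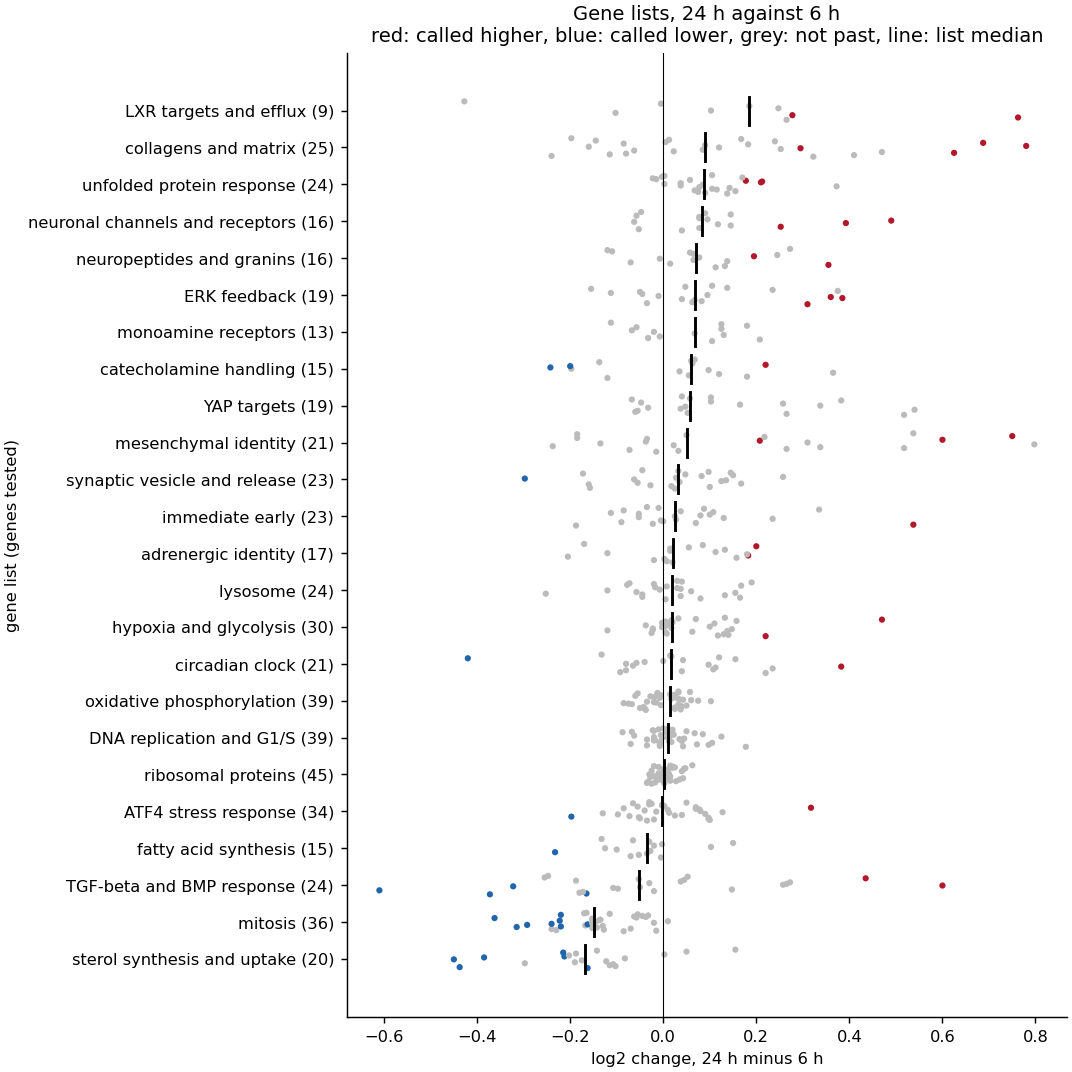
Log2 change between 24 h and 6 h (horizontal axis, 24 h minus 6 h) of the members of 24 gene lists, ordered by median; points are genes, black lines list medians, and the number of genes tested follows each name. The sterol list (median -0.17) and the mitosis list (median -0.15) lie lowest with 6 and 8 blue points, and the LXR list (median 0.185) lies highest with 2 red points.

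Genes that report TGF-beta and BMP signalling split. BMP and TGF-beta ligands act through SMAD proteins, and the inhibitory SMADs and the decoy receptor BAMBI are known as targets that feed back on the pathway. Of 24 tested genes, 4 were called lower and 2 higher, with a median of -0.05. The inhibitory SMAD gene SMAD6 had 7.25, 7.58, 7.41 and 7.62 at 24 h, against 8.03, 8.09, 8.13 and 8.05 at 6 h. It fell by 0.61 ± 0.08 (adjusted p = 0.00483), but its 2 other probe sets changed by -0.18 and 0.07 and were not called. SMAD7 had 6.48, 6.62, 6.68 and 6.62 at 24 h, against 6.95, 6.96, 7.0 and 6.98 at 6 h (adjusted p = 0.00482). Its other probe set changed by -0.02, and averaging its probe sets ended the call (change -0.15, adjusted p = 0.0708). The groups of both SMAD genes were separate.

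BAMBI had 9.44, 9.44, 9.39 and 9.35 at 24 h, against 9.77, 9.74, 9.72 and 9.68 at 6 h, a fall of 0.32 ± 0.04 (adjusted p = 0.00386) with no overlap. ID1, a helix-loop-helix inhibitor and BMP target, changed by -0.17 ± 0.04 (adjusted p = 0.0489). This call was lost without any 1 of the 8 arrays (adjusted p up to 0.116). The 2 other tested probe sets of ID1 changed by -0.24 and -0.215, with 1 called lower. MSX2, a homeobox gene that responds to BMP and was not on the list, fell by 0.55 ± 0.08 (adjusted p = 0.00856), while its other probe set changed by -0.145 without a call. The genes called higher were INHBA, the activin A subunit, and TGFBI, a matrix protein. INHBA had 7.28, 7.26, 7.44 and 7.39 at 24 h, against 6.75, 6.84, 7.05 and 6.99 at 6 h (change 0.43 ± 0.07, adjusted p = 0.0155), whereas its other probe set changed by -0.12, and averaging the probe sets ended the call (adjusted p = 0.0736). TGFBI rose by 0.60 ± 0.12 (adjusted p = 0.0289), a call lost without any 1 of 6 arrays (adjusted p up to 0.0786). Its 3 other tested probe sets changed by 0.52 to 0.65, with 1 called higher.

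IGFBP5, a secreted binding protein of insulin-like growth factors, fell by 0.545 ± 0.05 (adjusted p = 0.00131). It had 9.09, 9.20, 9.18 and 9.17 at 24 h, against 9.81, 9.72, 9.69 and 9.60 at 6 h. The groups were separate, and its 5 other probe sets changed by -1.275 to -0.10, with 2 of them called. SGK1, a kinase gene known as a glucocorticoid target, had 9.65, 9.69, 9.68 and 9.66 at 24 h, against 10.06, 10.04, 10.05 and 9.92 at 6 h (adjusted p = 0.00386). It was the only one of 13 tested glucocorticoid response genes called in either direction.

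Some matrix and mesenchymal genes were called higher. Of 25 collagen and matrix genes 4 were called higher and 0 lower (median 0.09), and of 21 mesenchymal identity genes 3 were called higher and 0 lower (median 0.05). None of these 7 calls held whichever array was left out. The matrix count was 7 without replicate 1 of 6 h, 3 without replicate 3 of 24 h, 1 without replicate 2 of 6 h and 0 without any other array. The mesenchymal count was 6 without replicate 1 of 6 h and 0 to 3 without any other array. LUM, the matrix proteoglycan lumican, had 7.74, 7.91, 7.77 and 7.83 at 24 h, against 7.41, 7.32, 6.68 and 6.72 at 6 h. The 24 h arrays were close together and the 6 h arrays spread, with replicates 3 and 4 lowest. The change was 0.78 ± 0.16 (adjusted p = 0.0347), lost without any 1 of 6 arrays (adjusted p up to 0.0998).

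THBS1, thrombospondin 1, had 5.90, 5.87, 5.55 and 5.92 at 24 h, against 5.46, 5.19, 4.79 and 5.05 at 6 h (adjusted p = 0.0293), and COL5A1, a fibrillar collagen chain, rose by 0.62 ± 0.12 (adjusted p = 0.0304). Both calls were lost without any 1 of 6 arrays (adjusted p up to 0.0861 and 0.0909). The 2 other tested probe sets of THBS1 changed by 0.14 and 0.19, and the 3 of COL5A1 by 0.05 to 0.49, without a call. RUNX2, a transcription factor of bone and mesenchyme, had 4.53, 4.67, 4.48 and 4.88 at 24 h, against 4.23, 3.90, 3.74 and 3.69 at 6 h (change 0.75 ± 0.12, adjusted p = 0.0161). Its call was lost only without replicate 2 of 24 h (adjusted p = 0.0530), and its second probe set changed by -0.03. ZFP36L1, an RNA-binding protein that destabilises messages, had a change of 0.915 ± 0.15 (adjusted p = 0.0158, but 0.0502 without replicate 4 of 24 h), and its 3 other probe sets changed by -0.25 to 0.11 with no call.

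In each of these genes the 24 h level was far below that of untreated cells: LUM averaged 9.33 there, THBS1 9.27, COL5A1 9.07, RUNX2 7.57 and ZFP36L1 8.61. Over all 21 genes the mesenchymal list stood at 6.74 to 6.81 in the 24 h arrays, against 6.47 to 6.78 in the 6 h arrays, so the groups overlapped. At 6 h replicate 1 had the highest mean of this list and replicate 3 the lowest, the order also seen in GPNMB, THBS1 and PPIC, and the part of this spread in the calls was not tested. The collagen and matrix list stood at 6.73 to 6.86 at 24 h, against 6.56 to 6.80 at 6 h. Of the 21 mesenchymal genes 13 changed upward and 8 downward, whether or not they passed. The first listed markers had changes near 0: FN1 (fibronectin) changed by 0.03 ± 0.10 and VIM (vimentin) by -0.07 ± 0.05, with adjusted p = 0.901 and 0.534. The largest change of the list was that of YAP1, the transcriptional coactivator of the Hippo pathway, a gene picked here after its values were seen. It had 5.81, 6.16, 5.94 and 6.01 at 24 h, against 5.76, 5.23, 5.20 and 4.54 at 6 h. It did not pass (change 0.80 ± 0.21, adjusted p = 0.0819), but passed in 6 of 22 alternative settings (lowest adjusted p 0.0163). Its 7 other tested probe sets changed by 0.025 to 0.69, with 1 called higher. The YAP target genes CCN1 and CCN2 had changes of 0.52 ± 0.17 and 0.27 ± 0.09, with overlapping groups (adjusted p = 0.143 and 0.169), and of 19 YAP targets limma called 0 in either direction (6 at an unadjusted p under 0.05). CCN2 averaged 3.44 at 24 h and 3.175 at 6 h, and passed the filter on dim genes with an untreated mean of 8.79. Without replicate 1 of 6 h 4 YAP targets were called. Of the 247 genes called higher, 107 had a 24 h mean below the untreated mean and 140 a mean above it.

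**Figure D4:**
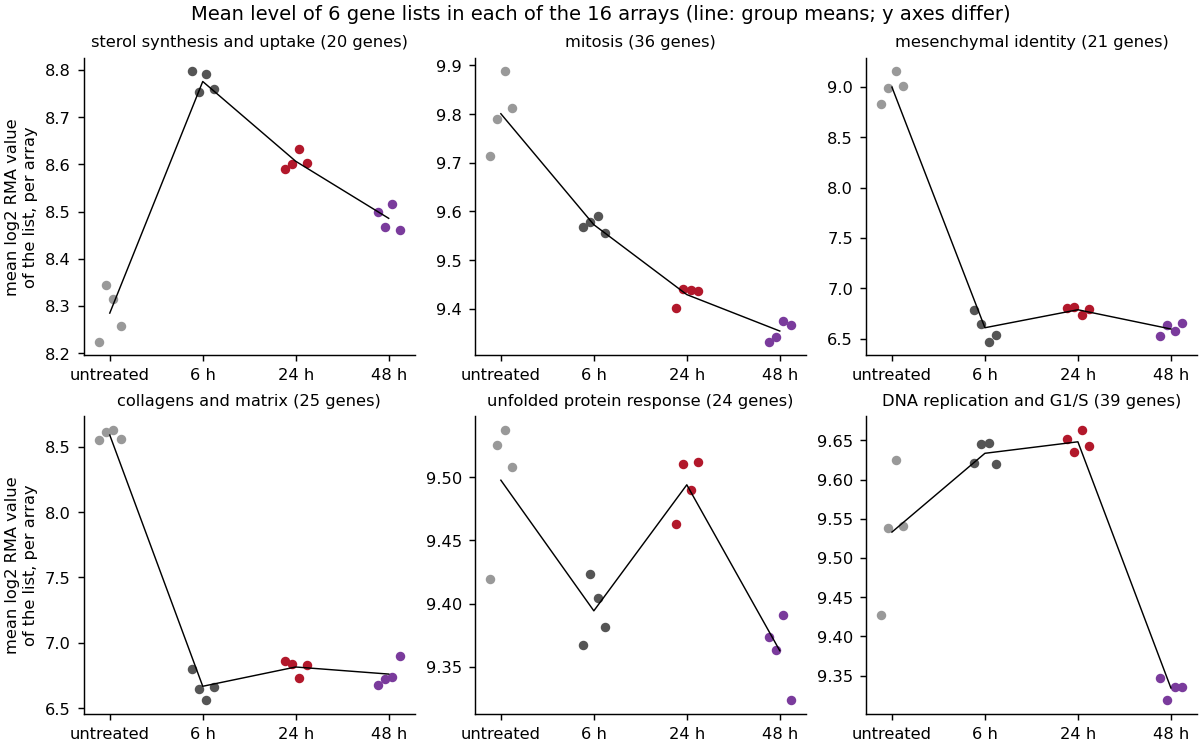
Mean log2 RMA value of 6 gene lists in each of the 16 arrays (points), at untreated, 6 h, 24 h and 48 h, with lines through the group means and vertical axes that differ. The sterol list stood at 8.59 to 8.63 at 24 h, against 8.75 to 8.80 at 6 h, and the mesenchymal list overlapped between 24 h and 6 h, far below the untreated arrays.

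Some neuronal genes were called higher. Of 16 tested neuronal channel and receptor genes 3 were called higher and 0 lower, against 1.81% and 1.25% of all genes. Above 0 lay 12 of the 16. The list's mean was 6.68 to 6.72 at 24 h, against 6.55 to 6.60 at 6 h, without overlap. Of 16 neuropeptide and granin genes 2 were called higher and 0 lower, with list means of 9.39 to 9.41 and 9.30 to 9.33. The synaptic vesicle and release list, with 1 gene called lower, overlapped, at 6.80 to 6.86 and 6.78 to 6.85. KCNMA1, the large-conductance calcium-activated potassium channel, had 9.90, 9.91, 9.92 and 9.88 at 24 h, against 9.46, 9.50, 9.35 and 9.34 at 6 h. The groups were narrow and separate (change 0.49 ± 0.04, adjusted p = 0.00131), and the mean in untreated cells was 10.09. The potassium channel gene KCNH1 and the N-type calcium channel gene CACNA1B had changes of 0.39 ± 0.08 and 0.25 ± 0.05 (adjusted p = 0.0285 and 0.0252), and each call was lost without any 1 of 5 arrays (adjusted p up to 0.0772 and 0.0718). NPY, the neuropeptide of sympathetic neurons, had 10.96, 10.91, 10.92 and 10.91 at 24 h, against 10.61, 10.54, 10.56 and 10.57 at 6 h. It rose by 0.355 ± 0.03 (adjusted p = 0.00166), and its mean in untreated cells was 10.96.

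Among 33 axon and neurite growth genes, 3 were called higher and 0 lower. MAPT, the microtubule protein tau, had 7.71, 7.60, 7.67 and 7.61 at 24 h, against 7.28, 7.40, 7.37 and 7.35 at 6 h (change 0.30 ± 0.04, adjusted p = 0.00888), and its 4 other probe sets changed by -0.03 to 0.24 without a call, and averaging ended the call (adjusted p = 0.222). PLXNA4, a plexin that receives semaphorin signals in growing axons, was outside that list and had 7.12, 7.40, 7.25 and 7.33 at 24 h, against 8.03, 8.10, 8.12 and 8.04 at 6 h. It fell by 0.80 ± 0.06 (adjusted p = 0.000562), with 2 other probe sets at -0.20 and 0.05 that were not called. All groups of these genes were separate.

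Of 15 tested catecholamine genes 1 was called higher and 2 lower, against 1.81% and 1.25% of all genes. In 4 the 24 h arrays were all above the 6 h arrays and in 2 all below. The shares of all genes were 6.25% and 4.8%. The list's mean overlapped, at 8.89 to 8.96 at 24 h and 8.87 to 8.94 at 6 h. GCH1, which makes the cofactor of tyrosine hydroxylase, was called higher (0.22 ± 0.05, adjusted p = 0.0448). The monoamine oxidase genes MAOA and MAOB were called lower (-0.24 ± 0.05 and -0.20 ± 0.04, adjusted p = 0.0311 and 0.0450). These 3 calls were lost without any 1 of at least 7 arrays (adjusted p up to 0.119, 0.0786 and 0.116). The other tested probe set of GCH1 rose by 0.26 and was called higher. The 3 of MAOA changed by -0.24 to 0.09, with 1 called lower, and that of MAOB by -0.13 without a call. TH, the rate-limiting enzyme, changed by -0.12 ± 0.06, and DBH, which makes noradrenaline, by 0.18 ± 0.06 (adjusted p = 0.370 and 0.145). Of the 13 monoamine receptor genes bright enough to test, limma called 0 in either direction (4 at an unadjusted p under 0.05). DRD2, the dopamine D2 receptor that risperidone blocks, averaged 5.60 at 24 h and 5.50 at 6 h (adjusted p = 0.286), with overlapping arrays.

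Genes of signalling and stress followed. EGR1, an immediate early transcription factor induced through the ERK kinases, had 8.19, 8.13, 7.97 and 8.21 at 24 h, against 7.49, 7.52, 7.76 and 7.58 at 6 h. It rose by 0.54 ± 0.07 (adjusted p = 0.00662) without overlap, and 2 of its 5 other probe sets were called higher. It was the only one of 23 tested immediate early genes called, and FOS and JUN changed by -0.19 and -0.02 (adjusted p = 0.164 and 0.887). Sprouty proteins and the phosphatase DUSP6 are known to dampen ERK signalling. Of 19 tested genes of this feedback 3 were called higher and 0 lower: SPRY2 had 9.49, 9.54, 9.61 and 9.55 at 24 h, against 9.18, 9.20, 9.15 and 9.22 at 6 h (adjusted p = 0.00273). SPRY1 rose by 0.385 ± 0.06 (adjusted p = 0.0138), and DUSP6 by 0.31 ± 0.06 (adjusted p = 0.0282), and the DUSP6 call was lost without replicate 1 of 6 h or replicate 2, 3 or 4 of 24 h (adjusted p = 0.0579 to 0.0839). The 2 other tested probe sets of SPRY1 changed by 0.13 and 0.17 without a call. Means in untreated cells were 8.72 for EGR1 and 7.72 for SPRY1, above their 24 h means. They were 9.18 for SPRY2 and 10.63 for DUSP6, below their 24 h means.

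Of 24 genes of the unfolded protein response, 3 were called higher and 0 lower, and 21 lay above 0 with a median of 0.0875. The called genes were SDF2L1, CRELD2 and MANF, which act on folding in the endoplasmic reticulum. They rose by 0.21 ± 0.04, 0.21 ± 0.04 and 0.18 ± 0.04 (adjusted p = 0.0289, 0.0308 and 0.0494), and each call was lost without any 1 of at least 7 arrays. The list's mean was 9.46 to 9.51 at 24 h, against 9.37 to 9.42 at 6 h, without overlap. The untreated arrays stood at 9.42 to 9.54, so the 24 h level was not above that of untreated cells. The chaperone HSPA5 had a change of 0.14 ± 0.05 (adjusted p = 0.167) on the chosen probe set, while 2 of its 5 other probe sets were called higher. Of 34 genes of the ATF4 stress response 1 was called higher and 1 lower, and ATF4 itself and the asparagine synthetase gene ASNS changed by -0.04 and -0.02 (adjusted p = 0.664 and 0.850).

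Of 22 autophagy genes, SQSTM1, the cargo receptor p62, and OPTN, optineurin, were called higher. SQSTM1 had 10.25, 10.22, 10.21 and 10.22 at 24 h, against 10.01, 9.97, 9.98 and 10.04 at 6 h, narrow groups that differed by 0.225 ± 0.03 (adjusted p = 0.0115). Its 4 other tested probe sets changed by 0.115 to 0.22 without a call. The SQSTM1 mean in untreated cells was 10.55, above the 24 h level. OPTN rose by 0.32 ± 0.06 (adjusted p = 0.0260), lost without any 1 of 5 arrays (adjusted p up to 0.0672), and both of its other probe sets were called higher. Among 21 clock genes NPAS2, a partner of BMAL1, was called higher and RORB, an orphan receptor, lower. NPAS2 had 3.96, 3.81, 3.78 and 3.73 at 24 h, against 3.36, 3.51, 3.49 and 3.39 at 6 h (adjusted p = 0.0115), levels close to the lowest mean kept, 3.65. Its mean in untreated cells, which count in the filter on dim genes, was 4.91. Its other probe set changed by 0.11 without a call, and the call was lost when its probe sets were averaged (change 0.10, adjusted p = 0.136) and with all 16 arrays in the fit (adjusted p = 0.0672). RORB had 7.85, 7.67, 7.71 and 7.82 at 24 h, against 8.18, 8.19, 8.13 and 8.23 at 6 h (adjusted p = 0.00384). The core clock gene BMAL1 changed by -0.09 ± 0.05 (adjusted p = 0.360).

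The largest falls were in genes of no common list. CRCP, a subunit of RNA polymerase III, had 7.28, 7.03, 7.30 and 7.04 at 24 h, against 8.22, 8.15, 8.36 and 8.34 at 6 h, 2.15-fold lower (adjusted p = 0.000478). Of its 5 other probe sets 4 were called lower, and the changes of the 5 ran from -1.055 to 0.025. HDGF, a nuclear growth factor, had 10.76, 10.68, 10.72 and 10.67 at 24 h, against 11.54, 11.76, 11.68 and 11.68 at 6 h. It fell by 0.96 ± 0.05 (adjusted p = 0.000118), and its 6 other probe sets were all called lower, with changes of -0.89 to -0.36. Its level at 6 h was close to that in untreated cells, 11.69, and it stayed low at 48 h, at 10.62.

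TAOK1, a kinase upstream of stress-activated kinases, fell by 0.79 ± 0.07 (adjusted p = 0.00131). It had 7.62, 7.74, 7.76 and 7.76 at 24 h, against 8.41, 8.36, 8.60 and 8.66 at 6 h, and 7.70 on average at 48 h. Its other probe set changed by -0.38 without a call. H2AC20, a histone H2A gene from a family of near-identical copies, whose signals its probe set may not tell apart, fell by 0.71 ± 0.09 (adjusted p = 0.00483). CRTAC1, a secreted matrix protein, fell by 0.625 ± 0.06 (adjusted p = 0.00166). All 3 had separate groups. HUWE1, a large ubiquitin ligase, fell by 0.56 ± 0.06 (adjusted p = 0.00384), COA7, an assembly factor of respiratory chain complexes, by 0.515 ± 0.05 (adjusted p = 0.00197), and NFKBIZ, a nuclear inhibitor of the IkB family, by 0.49 ± 0.06 (adjusted p = 0.00384). HUWE1 averaged 8.31 and COA7 8.19 at 48 h, above their 24 h means of 7.81 and 7.78. The other tested probe set of HUWE1 changed by -0.22 without a call.

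No gene of several constitutive lists passed. Of 45 ribosomal protein genes and 39 genes of oxidative phosphorylation limma called 0 in either direction (0 and 2 at an unadjusted p under 0.05), with medians of 0.0025 and 0.015. Of the 22 genes of the MYC network 0 were called (2 at an unadjusted p under 0.05), and MYC and MYCN changed by -0.08 ± 0.04 and -0.09 ± 0.08 (adjusted p = 0.285 and 0.611). Markers of other cell types (glia, melanocytes, endothelium, leukocytes, epithelium and smooth muscle) gave 1 call among the members bright enough to test. It was the myelin gene MBP (0.395 ± 0.09, adjusted p = 0.0487), whose arrays overlapped between 24 h and 6 h, whose level was 4.14 at 24 h and 3.75 at 6 h, and whose call was lost without any 1 of 6 arrays (adjusted p up to 0.133). The 2 melanocyte markers tested, a list that does not hold GPNMB, averaged 4.40 to 4.53 at 24 h and 4.34 to 4.57 at 6 h.

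The last comparison asked where the step between 6 h and 24 h differed from the step between 24 h and 48 h, by a test of the difference of the 2 changes in the 12 treated arrays. The steps share the 24 h arrays. The difference was above 0 in 948 genes (6.93%) and below 0 in 835 (6.1%). The count above 0 was 625, 550 and 553 without replicate 1, 2 or 3 of 24 h, and the count below 0 was 529, 495 and 546 without replicate 2, 3 or 4 of 24 h. Of the 247 genes called higher at 24 h over 6 h, 122 had a difference above 0, 3 had one below 0 and 122 did not pass. Of the 171 called lower, 62 had a difference below 0, 8 had one above 0 and 101 did not pass. A high or low 24 h mean moves both the call and the difference in the same direction. These splits are therefore partly fixed by the choice of genes, and nothing is concluded from them.

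Among the 10 genes with the smallest p in this test, 5 on each side, EGR1 and PRKCH were called in the early step and 8 were not. TXNIP and ARRDC4, arrestin-like proteins whose genes respond to glucose, changed by -0.12 and -0.15 between 6 h and 24 h and did not pass there (adjusted p = 0.138 and 0.133), but changed by -3.79 and -1.94 between 24 h and 48 h. The tests of the difference gave adjusted p = 1.7e-08 and 3.95e-08. EGR1, described above, had a change of -2.21 in the following step (adjusted p of the difference 1.59e-06). PRKCH, the eta member of the protein kinase C family, had 8.22, 8.05, 8.11 and 8.0 at 24 h, against 7.78, 7.76, 7.79 and 7.78 at 6 h (adjusted p = 0.0115), and changed by -0.82 in the following step (adjusted p of the difference 4.02e-05).

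On the other side, LATS1, a kinase of the Hippo pathway, and TET1, a 5-methylcytosine dioxygenase, changed by -0.03 and 0.14 in the early step and by 1.53 and 1.24 in the following one. Neither early change passed (adjusted p = 0.874 and 0.0778), and the differences had adjusted p = 2.4e-05 and 3.51e-05. LATS1 averaged 3.905 at 6 h and 3.875 at 24 h, close to the lowest mean kept, 3.65, and 5.40 at 48 h. Of the 39 replication genes 21 had a difference above 0, against 6.93% of all genes. Their median change was 0.01 in the early step and -0.29 in the following step. Of the 36 mitosis genes 6 had a difference below 0, against 6.1% of all genes. CHRM3 rose in both steps, with a difference between them of 0.01 (adjusted p = 0.963).

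**Figure D5:**
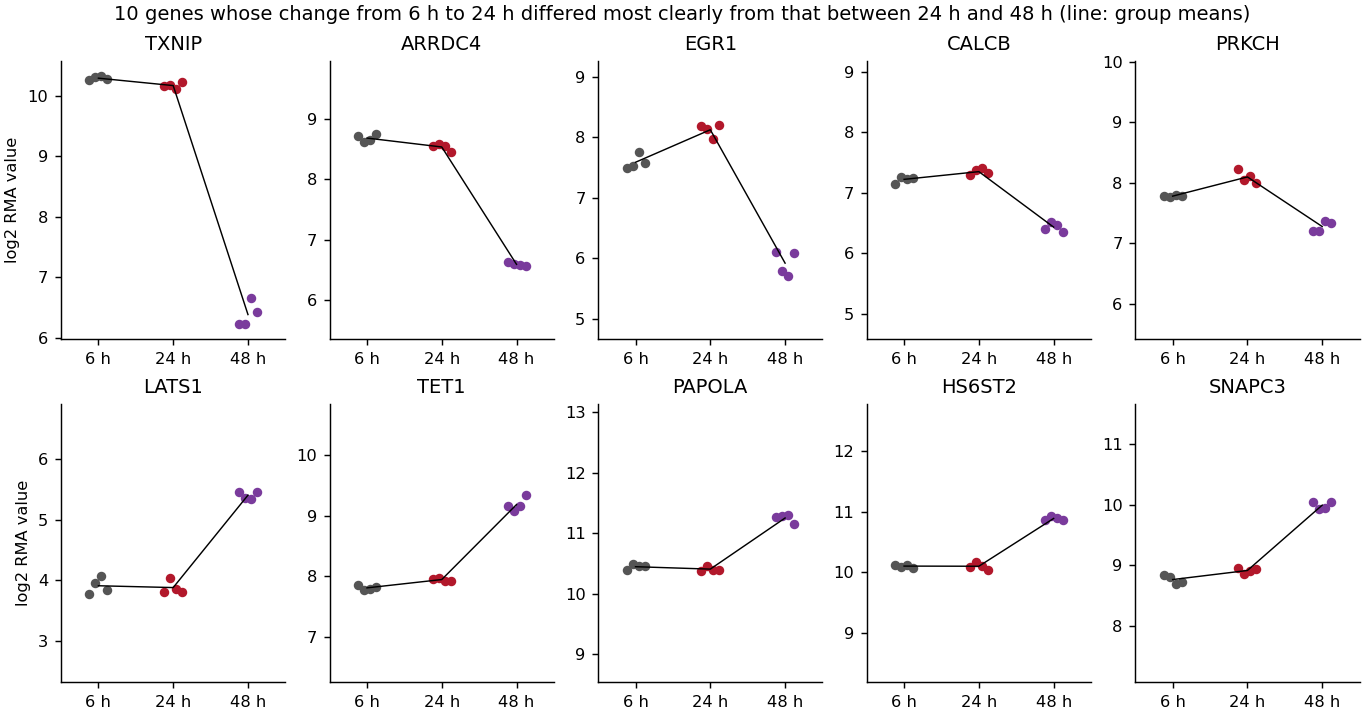
Log2 RMA values of 10 genes in the arrays of 6 h, 24 h and 48 h (points are arrays, lines join group means, every vertical axis spans the same log2 distance). In the upper row the level drops between 24 h and 48 h, in TXNIP by 3.79 on the log2 scale, and in the lower row it rises, in LATS1 by 1.53.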

How the data were processed

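RNA of SK-N-SH cells (4 arrays per group) was measured on U219 arrays. The deposited values are log2 expression values made by the authors with RMA, per the submitters' processing notes; the software is not given in the sources used here. RMA equalises the arrays' distributions, so a change in total RNA cannot be seen. Array medians were 4.50 to 4.62. Of 49386 probe sets, 93 were controls, 45253 had 1 gene symbol, 1327 had several and 2713 had none in GEO's platform annotation; 45172 were matched to RefSeq through Entrez IDs. Each of 18239 genes was represented by its probe set of highest mean over the 16 arrays, and the lowest 25% of genes were left out (13680 kept, lowest mean 3.65). The 8 arrays were fitted with limma 3.58.1 in R 4.3.3 (two-sided, Benjamini-Hochberg over all genes, threshold 0.05), and the step difference in the 12 treated arrays. The other settings tried were the probe set choice, dim filter, scaling, eBayes, array weights, replicate block, arrays in the fit, thresholds and leaving out each array.

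On simulated data with 50 genes changed at each size, 68% were recovered at 1.25-fold, 98% at 1.5-fold and 100% at 2-fold and 4-fold; 8 of 191 calls were false, and without change there were 0 calls. The 46 gene lists and the genes named were chosen with earlier results of these data known. The names come from the 20 largest rises and 20 largest falls called without overlap, up to 4 called members of smallest p per list and direction, the first 3 members of each list, a set of genes of interest and the 5 smallest p on each side of the step difference. Promoter sequences are RefSeq's (GRCh38.p14).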

Additional observations from a re-analysis of the deposited data

Results flagged for a closer look

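Among the genes named, 206 groups of 4 arrays were checked for 1 array far from the others, by the gap to its nearest neighbour over the group's range, and 12 were flagged, where chance flags about 1 in 20. In the 24 h group, CSPG5 was at 8.0 in replicate 4 against 8.05 to 8.06 in the others, and THBS1 at 5.55 in replicate 3 against 5.87 to 5.92. MYLIP was at 7.12 and TAOK1 at 7.62 in replicate 1, against 7.19 to 7.20 and 7.74 to 7.76. TARS2 was at 7.17 in replicate 2 against 7.35 to 7.37, BUB1B at 8.95 in replicate 2 against 9.05 to 9.07, and KIF20A at 9.11 in replicate 1 against 9.16 to 9.17. TH was at 5.10 in replicate 3 against 5.05 in the other 3, and PAPOLA, a poly(A) polymerase gene that did not pass, at 10.46 in replicate 2 against 10.38 to 10.39. In the 6 h group all 3 flags were of replicate 4: SGK1 at 9.92 against 10.04 to 10.06, CDK1 at 11.11 against 11.24 to 11.26 and BMAL1 at 8.90 against 9.04 to 9.05. In TAOK1, BUB1B and KIF20A the far array lay away from the 6 h group and in SGK1 toward the 24 h group, and these calls held with any 1 array left out.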

How the results depend on the processing

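The 247 higher and 171 lower calls changed by less than 1.5 times when dim genes were kept, when the dimmer 50% were dropped, with 3 other scalings and with all 12 or all 16 arrays in the fit. No value compared turned its direction past the threshold. Averaging the probe sets of each gene gave 289 higher and 322 lower, and the share of calls that were higher was 47.3%, against 59.1%. Each probe set tested by itself gave 401 higher and 531 lower, and trended, robust eBayes 411 and 302. A replicate block gave 238 higher and 101 lower (70.2% higher) and kept 263 of the 418 calls. The labels do not say that the numbers pair the arrays. Same-numbered deviations at 24 h and 6 h correlated at 0.149, 0.12, 0.181 and -0.00138, above 0.1 in 3 of 4 pairs, and 4 of 8 arrays correlated best with their own number. An adjusted p of 0.01 left 50 and 32, and at least 1.5-fold 26 and 9 (74.3% higher). Without replicate 1 of 6 h 69.5% were higher, and leaving out 1 array gave 102 to 276 higher and 67 to 121 lower. For the test against the following step (948 above 0, 835 below), single probe sets gave 1504 and 1695, array weights 1444 above, an adjusted p of 0.01 350 and 327, at least 1.5-fold 191 and 164, and leaving out 1 array 550 to 1203 above and 495 to 922 below. The causes of these shifts were not tested. The 4 arrays per group limit the precision, and the depth of RNA measured is unknown on arrays.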

Other observations

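Of the 20 largest falls, TARS2, CCNT1, PUS7L and CDC42BPA also held whichever array was left out. TARS2, the mitochondrial threonyl-tRNA synthetase, had 7.36, 7.17, 7.37 and 7.35 at 24 h, against 7.86, 7.79, 7.92 and 7.92 at 6 h (change -0.56 ± 0.05, adjusted p = 0.00166). Its other probe set changed by -0.155 without a call. CCNT1, the cyclin subunit of the elongation factor P-TEFb, had 5.73, 5.61, 5.54 and 5.74 at 24 h, against 6.11, 6.08, 6.03 and 6.23 at 6 h (adjusted p = 0.00618). PUS7L, a relative of the pseudouridine synthases, fell by 0.47 ± 0.07 (adjusted p = 0.00888), with 2 other probe sets at -0.21 and 0.165 that were not called, and averaging its probe sets ended the call (adjusted p = 0.0679). The kinase gene CDC42BPA, whose product acts on myosin, fell by 0.49 ± 0.06 (adjusted p = 0.00384), and its 5 other probe sets ran from -0.265 to 0.04 without a call. The groups did not overlap in any of these 4 genes on the probe set tested.

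Further genes called higher were EFNB2, NQO1 and VEGFA. EFNB2, the ligand ephrin-B2, of the axon and neurite growth list, rose by 0.31 ± 0.05 (adjusted p = 0.0169, but 0.0536 without replicate 3 of 24 h) and was at 10.16 on average at 48 h. NQO1, a quinone reductase and NRF2 target, rose by 0.26 ± 0.05 (adjusted p = 0.0221) and was the only one of 19 tested NRF2 targets called. The call was lost without any 1 of 4 arrays (adjusted p = 0.0532 to 0.0688). The NQO1 mean was 9.12 at 24 h, below that of untreated cells, 10.015. VEGFA, the endothelial growth factor, 1 of 2 called among 30 hypoxia and glycolysis genes, rose by 0.22 ± 0.04 (adjusted p = 0.0313), a call lost without any 1 of 6 arrays (adjusted p up to 0.0938), and its 9 other probe sets ran from -0.275 to 0.25 with 1 called higher.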
